A study of Mus musculus with 6 samples.

Results

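Messenger RNA levels of 9 genes that encode double-stranded RNA (dsRNA)-binding proteins and the microRNA processing enzymes were measured in the brain of adult mice with and without the RNA editing activity of ADAR1. The genes were *Drosha*, *Dgcr8*, *Dicer1*, *Tarbp2*, *Prkra*, *Stau1*, *Stau2*, *Dhx9* and *Ilf2*. They were taken by gene symbol for what their proteins do and not by a cut on measured values, although earlier results of these data were known. All 9 were found among the 37310 genes of the count table. Whole brain of 12 week old male C57BL/6 mice was used, with 3 independent biological replicates of each genotype. One group was homozygous for the E861A point mutation of *Adar1*, the gene listed under the symbol *Adar*, and the other group was wild type (WT) for *Adar1*. The mutation leaves the protein in place and removes its editing activity. Both groups were *Ifih1*-/- and therefore lacked MDA5, a cytosolic sensor of dsRNA, so no animal with the sensor entered the comparison. Both alleles were germline, and every cell of the brain carried them. RNA was depleted of ribosomal RNA before sequencing. In whole tissue, fewer cells of one type and less RNA per cell cannot be told apart.

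ADAR1 binds dsRNA and converts adenosine to inosine within it. The proteins considered here act on the same kind of RNA. Drosha, a nuclear ribonuclease, and DGCR8, its RNA-binding partner, form the Microprocessor, which cuts hairpins out of primary microRNA transcripts. Dicer, with TRBP (encoded by *Tarbp2*) or PACT (encoded by *Prkra*), cuts the hairpin again in the cytoplasm to give the mature microRNA, and the mature strand is loaded into an Argonaute protein. The Staufen proteins bind duplexes in messenger RNA and take part in its transport, including into dendrites, and in its decay. DHX9 is a helicase that unwinds RNA duplexes, and ILF2 (NF45) works in complexes with dsRNA-binding proteins.

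A substrate of the Microprocessor lies inside the messenger RNA of one of its own subunits. The hairpin of *Mir1306* is within a coding exon of *Dgcr8*, on the same strand, at chr16:18284332-18284410 of the NCBIM37 (mm9) genome. Its 79 bases, read from that genome and identical in the RefSeq microRNA table, are shown with the mature arms in capitals.
Mir1306 hairpin: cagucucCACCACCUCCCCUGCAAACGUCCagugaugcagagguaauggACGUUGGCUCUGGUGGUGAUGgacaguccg
The end products of the pathway are shown by 10 mature microRNAs that are well known in the brain. Capitals mark the seed, bases 2 to 8, with which a microRNA pairs to its targets. The sequences are those of the RefSeq table for GRCm38.p6. The first 4 each have a seed of their own.
miR-9-5p: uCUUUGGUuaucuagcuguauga
miR-128-3p: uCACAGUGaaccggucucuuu
miR-137-3p: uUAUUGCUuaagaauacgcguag
miR-134-5p: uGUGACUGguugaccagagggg
The next 2 share one seed.
miR-132-3p: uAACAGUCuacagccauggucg
miR-212-3p: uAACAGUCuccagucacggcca
The last 4 belong to the let-7 family and share another.
let-7a-5p: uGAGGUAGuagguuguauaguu
let-7b-5p: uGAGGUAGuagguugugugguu
let-7c-5p: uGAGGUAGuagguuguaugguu
let-7d-5p: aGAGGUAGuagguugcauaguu
Mature microRNAs themselves were not measured in these libraries, and the reads counted to their loci come from longer RNA.

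Libraries held 26853488 to 38076753 counts. Levels are given as CPM, each count scaled to its library total. Genes that reached 2 CPM or more in all 3 libraries of one genotype or the other were compared with edgeR's quasi-likelihood test, and a gene was called at an adjusted p-value under 0.05. This gave 69 calls among 13649 genes, of which 56 had the higher level in *Adar1* E861A and 13 in WT. A point mutation does not show in a count per gene. *Adar* read 168.7, 164.0 and 151.3 CPM in *Adar1* E861A and 116.4, 172.2 and 162.9 CPM in WT, and these values check no label. *Ifih1* held 38 to 56 counts in each of the 6 libraries. The part of it that the knockout removes is not given in the sources used here. Summed markers of neurons (3000 to 3052 CPM in *Adar1* E861A and 3067 to 3083 CPM in WT) and oligodendrocytes (3162 to 3412 and 3224 to 3380 CPM) were abundant in all libraries. Those of neurons did not overlap between genotypes, nor did those of choroid plexus (203 to 311 CPM in *Adar1* E861A and 368 to 392 CPM in WT), endothelium (57.8 to 74.8 and 79.4 to 93.5 CPM) or microglia (95.01 to 103.2 and 103.6 to 105.8 CPM). Those of astrocytes (330 to 365 and 332 to 362 CPM) and blood (92.8 to 112.6 and 101 to 193 CPM) did. Taken singly, *Snap25* (neurons), *Flt1* (endothelium), *Ttr* and *Kl* (choroid plexus) did not overlap between genotypes. The other markers of these types overlapped, among them *Rbfox3* and *Syt1* of neurons and every marker of microglia. Over all tested genes the CPM of 13.8% did not overlap. Pituitary markers summed to 434 CPM in *Adar1* E861A replicate 1 and to at most 2.51 CPM in the other libraries. The part of these differences in the values given next was not tested.

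All 9 genes passed the expression filter, and 0 of 9 were called in either direction. Over all tested genes 0.506% were called, 0.41% as higher and 0.0952% as lower in *Adar1* E861A. A fit with a replicate block again gave 0 of 9, with edgeR adjusted p-values from 0.524 (*Dgcr8*) to 0.996 (*Tarbp2*), against 1.16% of all tested genes. The sample labels do not state that same-numbered libraries are paired, so the block and the same-numbered pairs below are descriptive. At an unadjusted p-value under 0.05 the count was also 0 of 9, against 9.01% of all tested genes. The CPM of the genotypes overlapped for each of the 9, and they did not overlap for 13.8% of all tested genes. These counts among only 9 genes were not tested against the shares over all tested genes. DESeq2 and limma-voom likewise called 0 of 9. The log2 fold changes, *Adar1* E861A over WT, ran from -0.06 to 0.07. Of these, 5 were positive and 4 negative, with a median of 0.01, and the median over all tested genes was -0.0010. The median size of the fold change without its sign was 0.0219 on the log2 scale, against 0.0592 over all tested genes. The 95% intervals of 8 of the 9 lay within 0.25 of 0 on the log2 scale, as did those of 60.5% of all tested genes. In these comparisons of size and interval, the tested genes were not matched to the 9 in expression level. Exact two-sided permutation tests of 3 against 3 libraries, which cannot go below 0.1, gave p-values from 0.3 (*Drosha* and *Stau1*) to 1 (*Tarbp2*). The intervals bound the differences that the 6 libraries leave possible and do not show that the levels were equal.

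**Figure D1:**
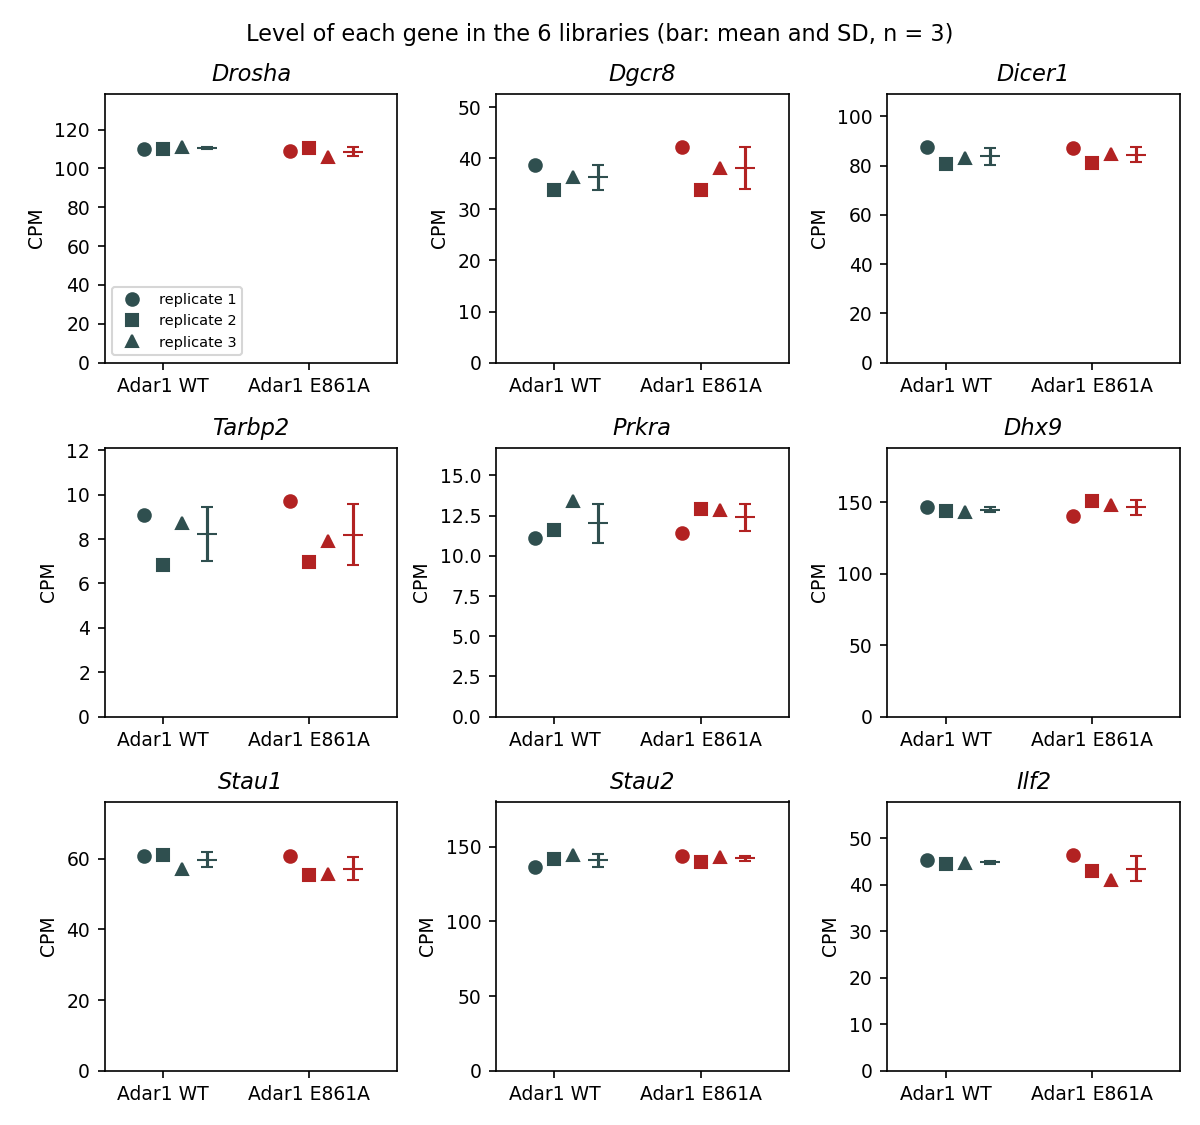
CPM of each gene (vertical axes, from 0) in the 3 *Adar1* WT (dark) and 3 *Adar1* E861A (red) libraries. Marker shape gives the replicate number, and the bar to the right of each group gives the mean and SD, n = 3. The genotypes overlap in all 9 panels, from Tarbp2 at 6.83 to 9.70 CPM to Dhx9 at 140.5 to 150.5 CPM.

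*Drosha* (ENSMUSG00000022191, chr15:12754570-12865045, plus strand) was the steadiest of the 9 genes. It read 108.9, 110.6 and 106.0 CPM in *Adar1* E861A replicates 1, 2 and 3, and 109.8, 110.2 and 110.9 CPM in the WT replicates. Mutant replicates 1 and 3 were below all WT values and mutant replicate 2 was among them. The coefficient of variation (CV, the SD as a percentage of the mean) over the 6 libraries was 1.65%. The means were 108.5 ± 2.34 CPM (SD, n = 3) in *Adar1* E861A and 110.3 ± 0.526 CPM in WT. The log2 fold change was -0.02 ± 0.04 (SE; edgeR adjusted p = 0.914), and its 95% interval ran from 0.922 to 1.05 times the WT level.

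*Dgcr8* (ENSMUSG00000022718, chr16:18254041-18289342, minus strand) had the largest fold change of the family, and it was within the spread of the libraries. It read 42.1, 33.9 and 38.2 CPM in *Adar1* E861A and 38.6, 33.7 and 36.4 CPM in WT. Replicate 1 was the highest and replicate 2 the lowest in both genotypes, and *Adar1* E861A was higher in 3 of 3 same-numbered pairs. Its log2 fold change was 0.07 ± 0.07 (SE; edgeR adjusted p = 0.809), with an interval from 0.946 to 1.16 times WT. The exact permutation test gave p = 0.6. Without *Adar1* E861A replicate 2, the lower of its mutant values, the log2 fold change was 0.14 ± 0.06 (edgeR adjusted p = 0.343), and that was the sole omission in which any of the 9 genes had an unadjusted p-value under 0.05. Without *Adar1* E861A replicate 1 it was 0.00095. Exons of *Dgcr8* overlap those of *Trmt2a* on the opposite strand over 825 bases, 11.3% of its exon length. The strand setting of the counting was not stated, so reads there cannot be assigned with certainty. The row of *Mir1306*, the hairpin shown above, held 0 counts in each of the 6 libraries. All of its bases are also exon of *Dgcr8*, and a count that accepts only reads falling in a single gene gives such a row nothing.

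*Dicer1* (ENSMUSG00000041415, chr12:105925952-105990162, minus strand), which encodes the cytoplasmic hairpin-cutting enzyme, read 87.2, 81.1 and 84.8 CPM in *Adar1* E861A and 87.4, 80.8 and 83.0 CPM in WT. The replicates of each number were close to each other across genotypes, with replicate 1 highest and replicate 2 lowest in both. The means were 84.4 ± 3.08 CPM (SD, n = 3) and 83.7 ± 3.37 CPM. Between genotypes the log2 fold change was 0.01 ± 0.05 (SE; edgeR adjusted p = 0.961), with an interval from 0.941 to 1.08 times WT.

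*Tarbp2* (ENSMUSG00000023051, chr15:102348623-102354107, plus strand) was the most variable gene of the family and the one with the fewest counts. TRBP, its product, stabilises Dicer and inhibits the dsRNA-activated kinase PKR. It read 9.70, 6.97 and 7.93 CPM in *Adar1* E861A and 9.09, 6.83 and 8.74 CPM in WT, from 213 to 329 counts per library. Again replicate 1 was highest and replicate 2 lowest in both genotypes, and the CV was 14.2%. The means were 8.20 ± 1.38 CPM (SD, n = 3) and 8.22 ± 1.22 CPM. The log2 fold change was -0.01 ± 0.13 (SE; edgeR adjusted p = 0.991), and its interval, the widest of the 9, ran from 0.825 to 1.20 times WT.

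*Prkra* (ENSMUSG00000002731, chr2:76467955-76486072, minus strand) encodes PACT, the other partner of Dicer and, unlike TRBP, an activator of PKR. It read 11.4, 12.9 and 12.8 CPM in *Adar1* E861A and 11.1, 11.6 and 13.4 CPM in WT. Replicate 1 was the lowest in both genotypes, whereas for *Tarbp2* it was the highest. Its log2 fold change was 0.05 ± 0.09 (SE; edgeR adjusted p = 0.914), with an interval from 0.900 to 1.19 times WT. *Prkra* is on the same chromosome as *Ifih1*, which both groups lacked, at a distance of 13.98 Mb.

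*Stau1* (ENSMUSG00000039536, chr2:166773049-166821799, minus strand), the more widely expressed of the Staufen genes, read 60.9, 55.3 and 55.6 CPM in *Adar1* E861A and 60.8, 61.0 and 57.2 CPM in WT. Mutant replicates 2 and 3 were below all WT values and mutant replicate 1 was among them. Between genotypes the log2 fold change was -0.06 ± 0.05 (SE; edgeR adjusted p = 0.765), with an interval from 0.888 to 1.04 times WT. *Stau2* (ENSMUSG00000025920, chr1:16218755-16510193, minus strand), whose product is enriched in neurons and carries RNA into dendrites, read 143.6, 140.0 and 143.0 CPM in *Adar1* E861A and 136.3, 142.1 and 144.3 CPM in WT. All 3 mutant values fell between the lowest and the highest WT value. The log2 fold change was 0.01 ± 0.05 (SE; edgeR adjusted p = 0.951), with an interval from 0.944 to 1.08 times WT.

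*Dhx9* (ENSMUSG00000042699, chr1:155302888-155334790, minus strand), the helicase, read 140.5, 150.5 and 147.6 CPM in *Adar1* E861A and 146.6, 143.8 and 143.3 CPM in WT. The mutant libraries held both the lowest and the highest value of the 6. Its log2 fold change was 0.02 ± 0.05 (SE; edgeR adjusted p = 0.935), with an interval from 0.944 to 1.09 times WT. *Ilf2* (ENSMUSG00000001016, chr3:90280123-90292301, plus strand) read 46.3, 43.0 and 40.9 CPM in *Adar1* E861A and 45.2, 44.4 and 44.6 CPM in WT. The SD was 2.72 CPM in the mutant group and 0.392 CPM in WT, with mutant values above and below all WT values. Between genotypes the log2 fold change was -0.04 ± 0.05 (SE; edgeR adjusted p = 0.834), with an interval from 0.899 to 1.05 times WT. *Ilf2* shares 354 exonic bases, 17.9% of its exon length, with *Snapin* on the opposite strand. It starts 722755 bases from the end of the mutated gene, *Adar*, and of the 21 tested genes between them 0 were called.

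**Figure D2:**
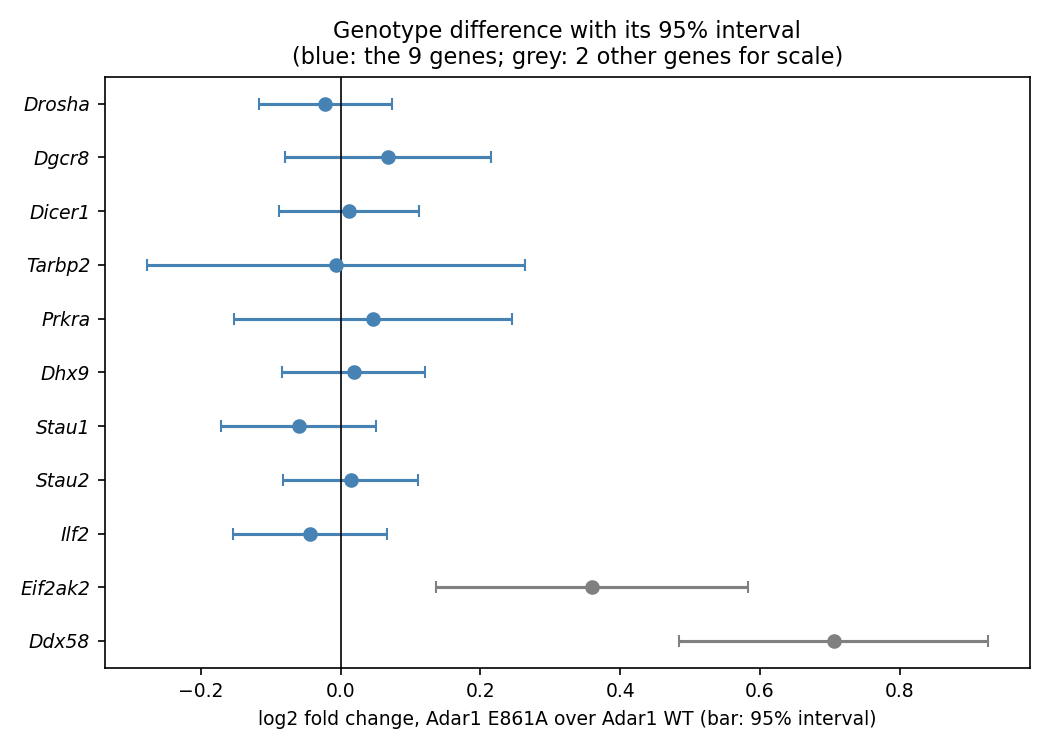
Log2 fold change, *Adar1* E861A over WT (horizontal axis), with its 95% interval for the 9 genes (blue) and, for scale, for Eif2ak2 and Ddx58 (grey). Every blue interval includes 0, and the blue intervals lie between -0.28 and 0.26, whereas that of Ddx58 begins at 0.48.

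**Figure D3:**
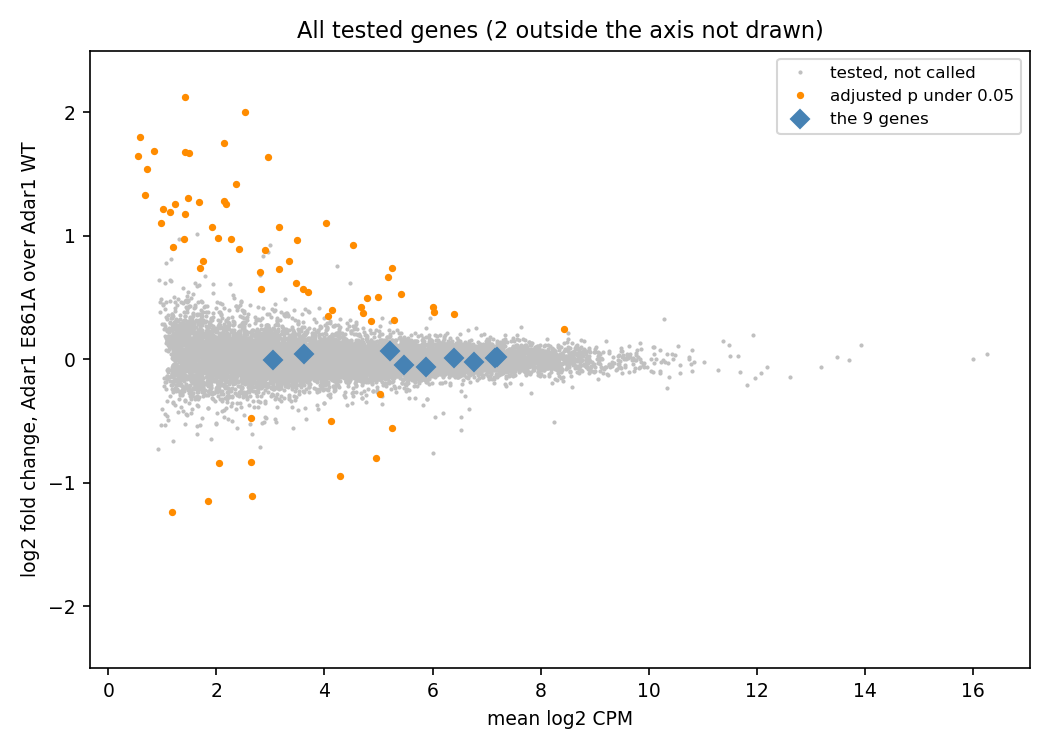
Log2 fold change, *Adar1* E861A over WT, against mean log2 CPM for 13649 tested genes (grey), the 69 called genes (orange) and the 9 genes of the family (blue diamonds). The diamonds lie along 0 at all levels from Tarbp2 to Dhx9, and 2 genes outside the vertical axis are not drawn.

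Levels were compared between genes as CPM per kilobase of exon (the union of the annotated exons), as the mean of all 6 libraries. *Dhx9* was highest with 31.5 ± 0.773 CPM per kb (SD, n = 6), followed by *Ilf2* with 22.3 ± 0.959, *Stau2* with 21.0 ± 0.442 and *Drosha* with 18.4 ± 0.304 CPM per kb. The libraries of *Ilf2* (20.7 to 23.5 CPM per kb) and *Stau2* (20.2 to 21.4 CPM per kb) overlapped, so these neighbours were not separated. *Stau1* with 9.64 ± 0.452 and *Dicer1* with 8.36 ± 0.289 CPM per kb came next. *Prkra* with 6.02 ± 0.471 and *Dgcr8* with 5.10 ± 0.438 CPM per kb overlapped, and *Tarbp2* was lowest with 1.80 ± 0.256 CPM per kb. In each enzyme and partner pairing, the enzyme was the more abundant transcript per length on this scale. The order depended on the length used. Per kilobase of the longest transcript, *Stau2* came first with 36.2 CPM per kb, ahead of *Dhx9*, *Dgcr8* (8.22) passed *Prkra* (7.56) and *Tarbp2* (3.01) remained last.

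Proportions between partners were compared within each library, since such a ratio does not depend on how the library is scaled. The ratio of *Drosha* to *Dgcr8* counts was 2.59, 3.27 and 2.78 in *Adar1* E861A and 2.84, 3.27 and 3.04 in WT. It was lower in the mutant in 3 of 3 same-numbered pairs, although both genotypes stood at 3.27 in the second pair, and the groups overlapped. The log2 ratio differed by -0.09 (exact two-sided permutation p = 0.4), and by -0.18 to -0.017 when 1 library was omitted. The ratio of *Stau1* to *Stau2* counts was 0.424, 0.395 and 0.388 in *Adar1* E861A and 0.446, 0.429 and 0.397 in WT. It was also lower in 3 of 3 pairs, with overlapping groups, and the log2 difference was -0.07 (exact permutation p = 0.2), or -0.12 to -0.037 when 1 library was omitted. The ratio of *Tarbp2* to *Prkra* counts was 0.851, 0.539 and 0.617 in *Adar1* E861A and 0.818, 0.590 and 0.653 in WT, a log2 difference of -0.05 (exact permutation p = 0.8). Within each genotype this ratio was highest in replicate 1 and lowest in replicate 2. Adjusted over the 4 ratios tested, each of the ratios given had a Benjamini-Hochberg p of 0.8 from the exact permutation test.

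After TMM scaling, the spread of these genes lay more between replicate numbers than between genotypes. Of the sum of squares of TMM-scaled log2 CPM over the 6 libraries, the members had a median of 71.4% between replicate numbers and 4.54% between genotypes. The medians over all tested genes were 45.6% and 16.9%. The replicate number has 2 degrees of freedom in this split and the genotype 1. The TMM factors themselves differed between replicate numbers. In *Adar1* E861A and WT they were 1.020 and 1.013 for replicate 1, 0.989 and 0.986 for replicate 2, and 0.990 and 1.003 for replicate 3. The part of this scaling in the shares was not tested. The share between replicate numbers was 93.7% for *Tarbp2*, 83.2% for *Prkra*, 81.7% for *Dgcr8*, 77.5% for *Dicer1* and 71.4% for *Drosha*. It was 67.0% for *Stau2*, 49.3% for *Dhx9*, 39.8% for *Ilf2* and 38.8% for *Stau1*. The genotype took its highest share in *Stau1*, with 30.1%. Without TMM scaling, the CPM of *Drosha* was lowest in replicate 3 of *Adar1* E861A and in replicate 1 of WT. *Dgcr8* and *Tarbp2* were lowest in replicate 2 and highest in replicate 1 of both genotypes. This order was held by 6.96% of all tested genes after TMM scaling. *Dicer1* had it in CPM, but after TMM scaling its highest *Adar1* E861A library was replicate 3 (deviation 0.0215, against 0.0190 in replicate 1). The deviations that follow are from the genotype mean of TMM-scaled log2 CPM. In replicate 1 of *Adar1* E861A and WT, *Tarbp2* deviated by 0.22 and 0.14, *Dicer1* by 0.02 and 0.04 and *Prkra* by -0.15 and -0.13. In replicate 3, *Tarbp2* deviated by -0.02 and 0.10 and *Prkra* by 0.07 and 0.16, so no one direction held for these partners. *Drosha* deviated by 0.04 and 0.02 in replicate 2 and *Dgcr8* by -0.15 and -0.08, whereas in WT replicate 3 both were above the mean, by 0.0039 and 0.0045. The source of what replicates of the same number share is not stated.

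**Figure D4:**
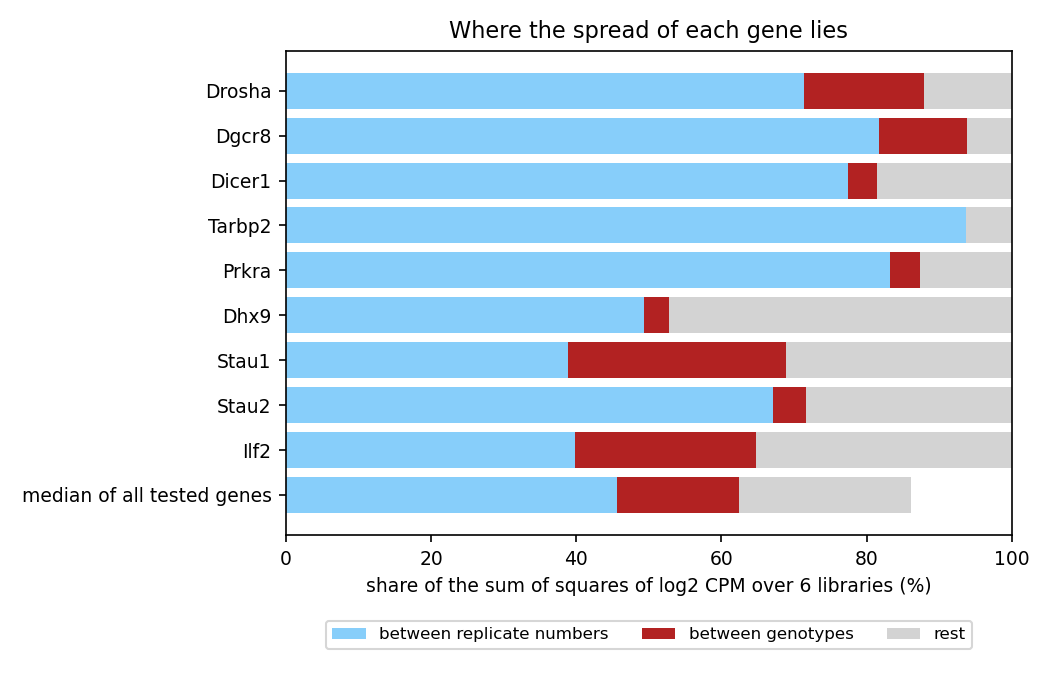
Share (%) of the sum of squares of TMM-scaled log2 CPM over the 6 libraries that lay between replicate numbers (blue), between genotypes (red) and in the rest (grey). The bottom bar gives the medians of each share over all tested genes, which need not sum to 100. The blue part runs from 38.8% in Stau1 to 93.7% in Tarbp2.

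For 8 of the members the tested gene whose TMM-scaled log2 CPM followed it most closely over the 6 libraries is given with Pearson's r, as a description. These were *1700056N10Rik* for *Dicer1* (r = 0.991), *Pan2* for *Dgcr8* (r = 0.999) and *Itga7* for *Tarbp2* (r = 0.995). For *Prkra* it was *Xiap* (r = 0.985), for *Stau1* *Cnnm2* (r = 0.989), for *Stau2* *Them4* (r = 0.991), for *Dhx9* *Mpeg1* (r = 0.989) and for *Ilf2* *Tmem132a* (r = 0.997). No member was the closest gene of another member. Each r is the highest of 13649 genes over only 6 points that also share a library and its replicate number.

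The genes that act beside these 9 in the microRNA pathway were read from the same fit. Of 27 listed (Argonautes, their TNRC6 partners, export, helicase, decay and hairpin-binding factors), 26 were tested and 0 were called by edgeR, with a median log2 fold change of 0.02. At an unadjusted p-value under 0.05 there were 3 of 26, and these 3 were also the ones with no overlap between genotypes, against 9.01% and 13.8% of all tested genes. *Ago3*, which encodes an Argonaute, read 177.1, 164.2 and 171.5 CPM in *Adar1* E861A and 151.7, 151.1 and 160.7 CPM in WT (log2 fold change 0.15 ± 0.04, edgeR adjusted p = 0.312). *Khsrp*, whose product binds the loop of some hairpins, read 83.3, 83.2 and 78.9 CPM against 89.4, 89.1 and 91.8 CPM (-0.14 ± 0.05, edgeR adjusted p = 0.371). *Mov10*, a helicase found with Argonautes, read 7.38, 6.83 and 7.75 CPM against 6.11, 5.91 and 6.67 CPM (0.23 ± 0.10, edgeR adjusted p = 0.525). None of the 3 met the threshold, nor did they with the replicate block (edgeR adjusted p = 0.0695, 0.122 and 0.249). *Ago2*, the Argonaute that can cut its target, had a log2 fold change of 0.01 ± 0.05 and *Xpo5*, the exporter of hairpins from the nucleus, one of 0.07 ± 0.05. The Microprocessor helicases *Ddx5* and *Ddx17* had -0.0005 ± 0.0463 and -0.02 ± 0.04.

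Among 16 other genes of dsRNA-binding proteins, 14 were tested and 0 were called, with a median log2 fold change of 0.04. An unadjusted p-value under 0.05 was found for 1 of the 14, against 9.01% of all tested genes. This was *Eif2ak2*, which encodes PKR, the kinase that TRBP inhibits and PACT activates. It read 10.2, 11.5 and 12.2 CPM in *Adar1* E861A and 8.87, 9.69 and 7.87 CPM in WT. All mutant values were above all WT values (log2 fold change 0.36 ± 0.10, edgeR adjusted p = 0.264). When no filter was applied (376 of 29282 genes called), its edgeR adjusted p was 0.0191. It was not called with the other methods: the adjusted p was 0.0913 by the likelihood ratio test, 0.256 by DESeq2 and 0.276 by limma-voom. With edgeR it was 0.107 with the replicate block and 0.230 with filterByExpr. *Mrpl44* had a log2 fold change of -0.12 ± 0.09 and *Adarb2* 0.11 ± 0.06. *Adarb1*, which encodes the editing enzyme ADAR2, had -0.03 ± 0.04. *Adar* had 0.10 ± 0.11, which became -0.061 without WT replicate 1. Of the dsRNA sensors, *Ddx58* (RIG-I) rose by 0.71 ± 0.10 on the log2 scale (edgeR adjusted p = 0.00307), with 8.90, 7.94 and 9.57 CPM against 5.25, 5.57 and 5.32 CPM. *Tlr3* had 0.11 ± 0.08 and *Mavs* -0.02 ± 0.11, and *Ifih1* and *Dhx58* were below the expression filter.

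Transcripts that carry microRNA hairpins are the substrates of the Microprocessor. Of 14 listed host transcripts 9 were found, 6 were tested and 0 were called, with a median log2 fold change of 0.09. Unadjusted p-values under 0.05 were obtained for 3 of the 6, against 9.01% of all tested genes. *Rian*, which lies in an imprinted cluster on chromosome 12 that also holds *Meg3* and *Mirg*, read 641, 577 and 637 CPM in *Adar1* E861A and 570, 523 and 584 CPM in WT. It was higher in the mutant within each same-numbered pair, while the groups overlapped (0.15 ± 0.05, edgeR adjusted p = 0.433, and 0.0538 with the replicate block). *Dleu2*, host of miR-15 and miR-16, had 0.22 ± 0.09 (edgeR adjusted p = 0.492, and 0.0590 with the replicate block). Without WT replicate 2 its log2 fold change was 0.12. *Mir670hg* had 0.28 ± 0.13 (edgeR adjusted p = 0.547, and 0.316 with the replicate block), from only 79 to 113 counts per library. Its groups did not overlap, as for 1 of the 6 tested, against 13.8% of all tested genes. *Mirg* read 37.3, 28.2 and 34.4 CPM against 36.7, 26.8 and 34.6 CPM, with replicate 1 highest and replicate 2 lowest in both genotypes, the order also seen for *Dgcr8* (0.02 ± 0.10, edgeR adjusted p = 0.964). *Meg3* had 0.03 ± 0.08.

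The hairpin loci themselves gave few counts. This set was examined after the data had been seen. Of 528 rows with a RefSeq microRNA symbol, 350 held a count and 123 passed edgeR's filterByExpr filter, of which 0 were called by edgeR and 4 had an unadjusted p-value under 0.05. In the main fit, with its own filter, 9.01% of all tested genes had an unadjusted p-value under 0.05. The median log2 fold change of the 123 rows was 0.11, against 0.0001 over the 19366 genes of that filterByExpr fit, of which 0.568% were called. Many of the 123 rows are on chromosome 12, as *Rian* is, so they need not be independent of one another. The summed level of all 528 rows was 145, 114 and 133 CPM in *Adar1* E861A and 132, 106 and 126 CPM in WT (exact two-sided permutation p = 0.5). The groups overlapped, *Adar1* E861A was higher within each same-numbered pair, and replicate 1 was again the highest and replicate 2 the lowest. Among the microRNAs shown above, *Mir134* held 43 to 64 counts per library, *Mir128-1* 37 to 62 and *Mirlet7d* 33 to 52. *Mir132* held 16 to 35 and *Mir212*, which shares its seed, 19 to 38 counts. Mir212 had a log2 fold change of -0.38 ± 0.24 (edgeR adjusted p = 0.721) and Mir134 one of 0.22 ± 0.24 (edgeR adjusted p = 0.856). Neither passed the test at these counts.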

How the data were processed

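Reads of 6 brain libraries (stranded kit, 75 bp paired ends) were trimmed with Trimmomatic 0.36 and aligned to NCBIM37 with STAR 2.5.2a, versions as in the submitters' processing notes. The authors deposited raw counts per gene from STAR's gene counting, not normalised and not pooled. The strand column taken is not given in the sources used here. Deposited CPM tables and the authors' own table of fold changes and false discovery rates were not used. Coordinates, exons and overlaps are those of GENCODE vM1 on NCBIM37.

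The counts were compared between genotypes by edgeR 4.0.16 under R 4.3.3 (quasi-likelihood test, TMM factors from 0.986 to 1.02, no covariates), after the CPM filter given above. Benjamini-Hochberg adjustment ran over all 13649 tested genes. Intervals of 95% used the t distribution with the total degrees of freedom of the fit. CPM were calculated from column totals, and exact tests of single genes used their log2. Log2 CPM for the shares, deviations, correlations and the replicate order over all genes was scaled by the TMM factors, with a prior count of 2. Partner ratios were tested by exact two-sided permutation and, over same-numbered pairs, by flipping the signs of the paired differences. Alternatives were the likelihood ratio test, DESeq2 1.42.0, limma 3.58.1 (voom), other size factors, other filters, a replicate block and the omission of each library. The scripts were tested on simulated data.

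Same-numbered libraries deviated together from their group means over all tested genes (r = 0.221, 0.329 and 0.112 for replicates 1, 2 and 3). The sample labels give no pairing, and other matchings of the libraries were not compared. Counts over same-numbered pairs, the replicate block and the shares between replicate numbers are therefore descriptions and do not make the design a paired one. The members and lists were chosen with earlier results of these data known. All members were named, and from each other list the called genes, the 3 tested genes of largest change and a fixed set of pathway genes. Of these, 1 ratio, 1 listed gene and the gene most like *Drosha* are not reported here. No molecular identifiers were used, and p-values cover the spread between these libraries.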

Additional observations from a re-analysis of the deposited data

How the results depend on the processing

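None of the 9 genes was called under any of 14 alternatives, over which their log2 fold changes ran from -0.13 to 0.14 with a lowest adjusted p of 0.343. Their median ran from -0.013 to 0.0122. The number of genes called over all tested genes was 139 with the likelihood ratio test, 376 without a filter, 110 with filterByExpr and 158 with the replicate block, and 42 to 113 when a library was omitted. The block called none of the 9 genes and changed no other call among the genes and lists named. Without a filter, 1 gene of the other dsRNA-binding list, *Eif2ak2*, was called (0.35, adjusted p = 0.0191), and *Ago2* became -0.0045 (-0.0010 with filterByExpr).

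Omitting 1 library turned the direction of genes near 0. The ranges over the 6 omissions were -0.0024 to 0.0366 for *Dicer1*, -0.131 to 0.0963 for *Tarbp2*, -0.013 to 0.127 for *Prkra*, -0.0158 to 0.0318 for *Stau2* and -0.0129 to 0.058 for *Dhx9*. They were -0.0243 to 0.0482 for *Ago2*, -0.0266 to 0.0184 for *Ddx5*, -0.061 to 0.219 for *Adar*, -0.0921 to 0.127 for *Mirg* and -0.237 to 0.0914 for the *Tarbp2* to *Prkra* log2 ratio. *Drosha* (-0.0461 to -0.0114), *Dgcr8* (0.00095 to 0.139), *Stau1* (-0.0934 to -0.0329) and *Ilf2* (-0.0789 to -0.0112) kept their direction in all 6, but not their size, and *Adarb2* ran from 0.0461 to 0.149 and *Mrpl44* from -0.181 to -0.0599. The summed hairpin level, added after the data were seen, differed by 0.01 to 0.20. The causes of these turns were not tested.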
